A study of Mus musculus with 6 samples.

Results

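Genes of the integrated stress response and of its mitochondrial branch were examined in isolated adult cardiomyocytes (CMs) with and without the carnitine palmitoyltransferase gene Cpt1b. The set was chosen by name and holds 10 genes, which are the transcription factors Atf4, Atf5 and Ddit3, the pseudokinase Trib3, the amino acid and one-carbon enzymes Asns, Psat1, Phgdh, Mthfd2 and Shmt2, and the secreted factor Gdf15. Of these, 9 were found among the 16448 genes of the deposited table, and Phgdh was not analysed here. The samples were 3 CtrlCre and 3 Cpt1bcKO samples of CMs from C57BL/6 mice aged 8 to 12 weeks. Both groups carried the αMHC-Cre driver, which is active in CMs from embryonic stages, and they differed in the Cpt1b alleles, wild type in CtrlCre and floxed on both copies in Cpt1bcKO. CMs were obtained by enzymatic perfusion of the heart and low-speed centrifugation of the ventricular cells, without a sort, so that other cardiac cells could be carried along. The labels do not say whether each sample was 1 mouse, and P values here measure the spread between these samples.

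The integrated stress response is a signalling route on which several kinds of stress converge. Kinases that sense unfolded protein, amino acid shortage, viral RNA or mitochondrial trouble phosphorylate the initiation factor eIF2, which slows translation in general while the mRNA of Atf4 is translated better. ATF4 then drives genes for amino acid uptake, asparagine, serine and proline synthesis, mitochondrial one-carbon metabolism and tRNA charging, often by binding a composite C/EBP–ATF element together with a partner. In heart muscle with defects of mitochondrial gene expression or respiration this programme is a well-known part of the response, and GDF15 and FGF21 are the hormones through which it can act outside the cell. ATF4 is controlled largely by translation, so the mRNA level of Atf4 reports only part of its activity.

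Promoter sequences are shown for Gdf15, the member with the large difference, for Asns and Trib3, the members whose promoters held the C/EBP–ATF element, and for Hspa5, the leading chaperone gene of the parallel endoplasmic reticulum (ER) response described further on. They are RefSeq sequences of GRCm38.p6, from 250 bases before to 50 bases after the annotated start, and each is written 5′ to 3′ on the strand of its gene. Capitals mark a match to the C/EBP–ATF element, searched as TGATGNAA on both strands, or, in Hspa5, to the ER stress element, searched on both strands as CCAAT, any 9 bases and CCACG. The windows are chr8:70632407-70632706 (minus strand) for Gdf15, chr6:7693160-7693459 (minus strand) for Asns, chr2:152344011-152344310 (minus strand) for Trib3 and chr2:34771840-34772139 (plus strand) for Hspa5.
Gdf15: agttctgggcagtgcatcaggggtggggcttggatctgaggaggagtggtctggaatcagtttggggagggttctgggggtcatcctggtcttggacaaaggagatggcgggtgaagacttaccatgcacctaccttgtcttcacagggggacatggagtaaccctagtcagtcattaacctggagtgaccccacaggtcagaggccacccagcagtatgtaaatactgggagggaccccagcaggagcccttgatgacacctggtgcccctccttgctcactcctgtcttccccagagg
Asns: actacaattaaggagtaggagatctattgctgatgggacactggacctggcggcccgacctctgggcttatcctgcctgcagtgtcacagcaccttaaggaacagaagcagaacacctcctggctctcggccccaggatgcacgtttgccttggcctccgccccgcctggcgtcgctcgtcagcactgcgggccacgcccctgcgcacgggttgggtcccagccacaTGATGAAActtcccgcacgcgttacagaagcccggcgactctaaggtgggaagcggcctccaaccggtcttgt
Trib3: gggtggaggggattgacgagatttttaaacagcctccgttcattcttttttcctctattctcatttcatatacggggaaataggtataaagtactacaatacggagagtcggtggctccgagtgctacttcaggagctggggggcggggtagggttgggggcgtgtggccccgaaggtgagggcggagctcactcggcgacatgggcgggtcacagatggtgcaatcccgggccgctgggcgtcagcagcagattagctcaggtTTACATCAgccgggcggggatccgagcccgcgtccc
Hspa5: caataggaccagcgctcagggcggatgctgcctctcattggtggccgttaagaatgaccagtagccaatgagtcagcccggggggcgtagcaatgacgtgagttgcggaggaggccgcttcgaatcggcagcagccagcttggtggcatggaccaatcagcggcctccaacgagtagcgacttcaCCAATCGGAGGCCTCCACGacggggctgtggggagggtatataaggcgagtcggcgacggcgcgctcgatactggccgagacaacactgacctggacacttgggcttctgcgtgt

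All 10 members had a RefSeq window, and 3 of them had a second one. Asns held TGATGAAA starting 23 bases before the start, and Trib3 held TTACATCA, the element read on the other strand, just after it. The other members, Gdf15 included, held no match to these letters in their windows. The element was present in 1304 of 32851 promoter windows (3.97%) and the ER stress element in 39 of them (0.119%). A match is a description of the sequence, and the absence of one says only that these letters are not in the window.

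The values are read counts after division by a size factor per sample, rounded by the authors to integers, and they are called normalized counts here. They summed to between 13393411 and 31722217 per sample. The mitochondrial rRNA gene mt-Rnr2 took 63.2 to 64.6% of the sum in CtrlCre and 61.8, 72.6 and 80.8% in Cpt1bcKO replicates 1, 2 and 3. Cpt1bcKO replicate 3 thus had the highest mt-Rnr2 share, and it also had the highest sum. From the spacing of low values, 1 read was worth between 0.682 and 1.295 normalized counts, which corresponds to about 14900000 to 24500000 reads on genes, so a value of 5 rests on only a few reads. Differences are given as log2 fold changes of Cpt1bcKO over CtrlCre on the log2(value + 1) scale, from limma's moderated test over the 11364 genes that reached a value of 10 in 3 or more samples, and adjusted P values are by Benjamini–Hochberg over all of these genes. With 3 samples against 3, the smallest P value of an exact permutation test is 0.10. Cpt1b, the targeted gene, fell, with 1861, 893 and 1443 normalized counts in CtrlCre and 211, 353 and 285 in Cpt1bcKO CMs (adjusted P = 0.00338). The 10 CM markers examined were the most abundant of all marker lists, with sums of 561134 to 650438 in CtrlCre and 365926 to 588697 in Cpt1bcKO samples. Xist was high in replicate 1 of both groups (957 and 1080 normalized counts) and low in the others (23 to 78), which points to female mice for these and male mice for the others. CtrlCre replicate 1 stood apart in stress-related genes. Its immediate early genes summed to 6307 normalized counts, against 2969 to 4374 in the other 5 samples.

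Among the stress response genes, only Gdf15 passed the test across all genes. Its mean was 20.9 times as high in Cpt1bcKO CMs, whereas Atf4, Atf5, Ddit3 and Shmt2 had log2 fold changes between −0.28 and 0.17 with intervals that include 0. Asns, Psat1, Mthfd2 and Trib3 were at the lower end of detection. After the filter on low values 6 of the 10 members were tested, and 1 of them, Gdf15, was called at an adjusted P value below 0.05, against 1.57% of all genes tested, 0.660% higher and 0.906% lower in Cpt1bcKO. Gdf15 passed the filter only through the Cpt1bcKO samples, in which it was high, so the share among the tested members carries no weight of its own.

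**Figure D1:**
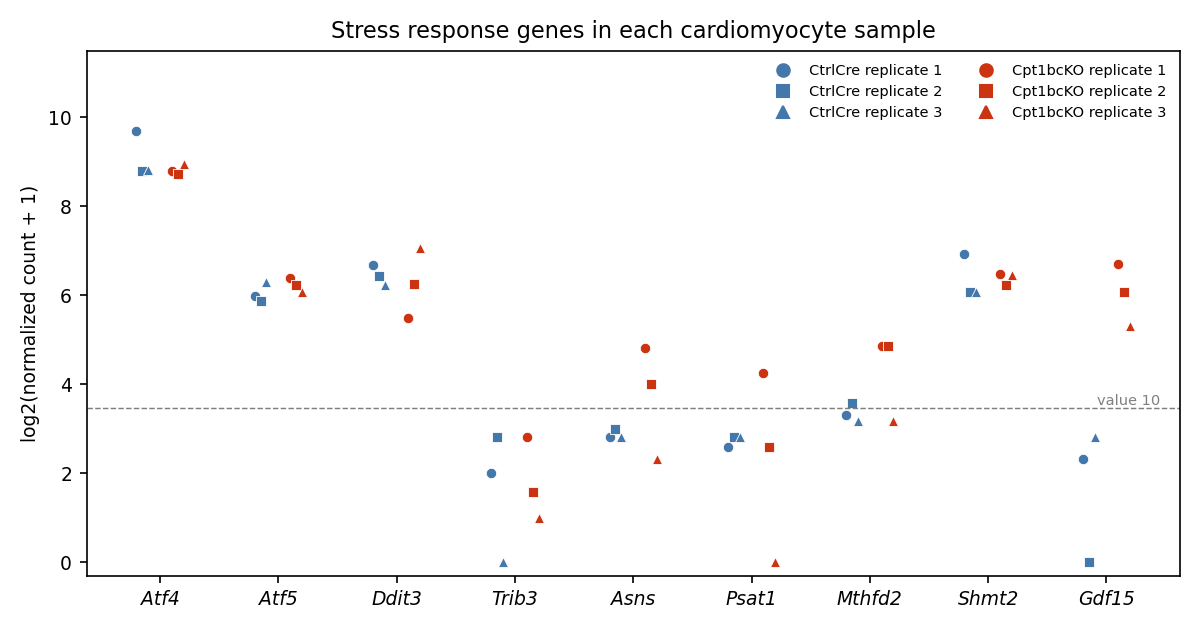
Values of the 9 measured stress response genes in each sample, as log2(normalized count + 1), with 1 point per sample, blue for CtrlCre, red for Cpt1bcKO and circles, squares and triangles for replicates 1, 2 and 3. The 3 Cpt1bcKO samples lie above all CtrlCre samples for Gdf15 alone, and Trib3, Asns and Psat1 lie mostly under the dashed line at a value of 10.

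Atf4 (ENSMUSG00000042406, chr15:80255184-80257540, plus strand, GRCm38), the central transcription factor of the response, had 833, 447 and 449 normalized counts in CtrlCre and 445, 425 and 493 in Cpt1bcKO CMs. CtrlCre replicate 1 was high and the other 5 samples lay close together. The log2 fold change was −0.28 ± 0.230 SE (95% interval −0.79 to 0.23, limma adjusted P = 0.637), and it was 0.017 without CtrlCre replicate 1. Atf5 (ENSMUSG00000038539, chr7:44812256-44816658, minus strand), a related factor linked to the response to unfolded mitochondrial protein, had 62, 58 and 78 normalized counts in CtrlCre and 83, 74 and 66 in Cpt1bcKO CMs. The groups overlapped, with a log2 fold change of 0.17 ± 0.214 SE (95% interval −0.30 to 0.65, limma adjusted P = 0.769). It overlaps Nup62 and Il4i1 on the opposite strand, and the use of strand in counting is not given in the sources used here.

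Ddit3 (ENSMUSG00000025408, chr10:127290774-127296288, plus strand) encodes CHOP, a factor linked to cell death under prolonged stress. It had 102, 86 and 74 normalized counts in CtrlCre and 44, 76 and 133 in Cpt1bcKO CMs, so that the lowest and the highest of all 6 values were both in Cpt1bcKO. Its log2 fold change of −0.18 had a wide interval, from −0.95 to 0.59 (limma adjusted P = 0.861), and turned to 0.21 without Cpt1bcKO replicate 1. The gene overlaps Mars on the opposite strand. Trib3 (ENSMUSG00000032715, chr2:152337422-152344032, minus strand), which is induced by ATF4 and CHOP and restrains them, was barely detected. It had 3, 6 and 0 normalized counts in CtrlCre and 6, 2 and 1 in Cpt1bcKO CMs, a sum of 9 in each group, and was not tested.

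The enzymes of amino acid synthesis were present at a few normalized counts per sample in CtrlCre CMs. Asns (ENSMUSG00000029752, chr6:7675169-7693254, minus strand), which makes asparagine and is a textbook ATF4 target, had 6, 7 and 6 normalized counts in CtrlCre and 27, 15 and 4 in Cpt1bcKO CMs. Cpt1bcKO replicates 1 and 2 were above all CtrlCre samples and replicate 3 was below them, and the exact permutation test gave P = 0.4. Psat1 (ENSMUSG00000024640, chr19:15904678-15925059, minus strand), of the serine synthesis pathway, had 5, 6 and 6 normalized counts in CtrlCre and 18, 5 and 0 in Cpt1bcKO CMs (exact permutation P = 0.8). Its Cpt1bcKO values were spread on both sides of the tight CtrlCre values. Neither gene passed the filter on low values. Both stayed out of the limma fit.

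Mthfd2 (ENSMUSG00000005667, chr6:83305691-83317606, minus strand), the mitochondrial folate enzyme that is low in most adult tissues and a sensitive marker of the response, had 9, 11 and 8 normalized counts in CtrlCre and 28, 28 and 8 in Cpt1bcKO CMs. As for Asns, Cpt1bcKO replicates 1 and 2 were above every CtrlCre sample, while replicate 3 was at the lowest CtrlCre value. Replicate 3 also had the highest mt-Rnr2 share, and the part of that share in these values was not tested. The log2 fold change was 0.94 ± 0.512 SE (95% interval −0.20 to 2.07, unadjusted P = 0.0967 and limma adjusted P = 0.447), and it was 1.499 without Cpt1bcKO replicate 3 (limma adjusted P = 0.146). Shmt2 (ENSMUSG00000025403, chr10:127517123-127522444, minus strand), which splits serine to feed the mitochondrial folate pool, had 121, 67 and 67 normalized counts in CtrlCre and 88, 74 and 87 in Cpt1bcKO CMs. All Cpt1bcKO values lay within the CtrlCre range. Its log2 fold change was 0.019 ± 0.257 SE (95% interval −0.55 to 0.59, limma adjusted P = 0.984).

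Gdf15 (ENSMUSG00000038508, chr8:70629393-70632456, minus strand) encodes growth differentiation factor 15, a secreted hormone that acts on the brainstem to curb appetite and that stressed tissues release. It had 4, 0 and 6 normalized counts in CtrlCre and 104, 66 and 39 in Cpt1bcKO CMs. Every Cpt1bcKO sample was above every CtrlCre sample, and Cpt1bcKO replicate 1 was the highest and replicate 3 the lowest of its group. Asns, Psat1 and Trib3, all at low values, had the same order. Ddit3 had the reverse order (44, 76 and 133), and Atf4 was highest in replicate 3 (445, 425 and 493). The means were 3.33 ± 3.06 and 69.7 ± 32.7 (SD, n = 3 each), and the log2 fold change was 4.32 ± 0.695 SE (95% interval 2.78 to 5.87, limma adjusted P = 0.0142). The exact permutation test gave its smallest possible value, P = 0.10. Non-overlapping groups were found in 18.7% of all genes tested, 9.13% in this direction and 9.60% in the other. The size depended on the scale, since the control values were near 0, with a log2 fold change of 3.14 with a pseudocount of 5 and 4.73 with a pseudocount of 0.5.

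The call of Gdf15 rested on several samples. With each CtrlCre replicate left out the log2 fold change lay between 3.47 and 4.87, with limma adjusted P values from 0.0215 to 0.0272. With a Cpt1bcKO replicate left out, Gdf15 no longer passed the filter. In fits without a filter, chosen after seeing the data, its log2 fold change was then 3.98 to 4.68, and the adjusted P value in limma was 0.0282 without Cpt1bcKO replicate 1, 0.108 without replicate 2 and 0.0430 without replicate 3. A single prior variance for all genes, in place of a trend over expression, gave an adjusted P value of 0.0779 in limma. With replicates 2 and 3 of both groups alone, the samples low in Xist, the log2 fold change without a filter was 4.29, in a fit that called 0 of 16415 genes and so could not test the call.

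Divided by exon length, the members had very different levels in CtrlCre CMs. The mean level was 244 normalized counts per kilobase of exon for Atf4, 51.0 for Ddit3, 33.1 for Atf5 and 27.3 for Shmt2, but only 1.33 to 2.68 for Mthfd2, Asns, Gdf15, Trib3 and Psat1. In Cpt1bcKO CMs the mean level of Gdf15 was 37.6 ± 17.6 normalized counts per kilobase (SD, n = 3), a spread that holds the means of Ddit3 (49.2), Atf5 (37.3) and Shmt2 (26.7), while Asns and Mthfd2 were at 5.61 ± 4.21 and 6.12 ± 3.31. Among these low genes, the levels in CtrlCre CMs were 2.68 ± 0.438 for Mthfd2, 2.32 ± 0.211 for Asns, 1.80 ± 1.65 for Gdf15, 1.41 ± 1.41 for Trib3 and 1.33 ± 0.136 for Psat1 (SD, n = 3 each), so that of neighbours in this order none differed beyond their spread.

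**Figure D2:**
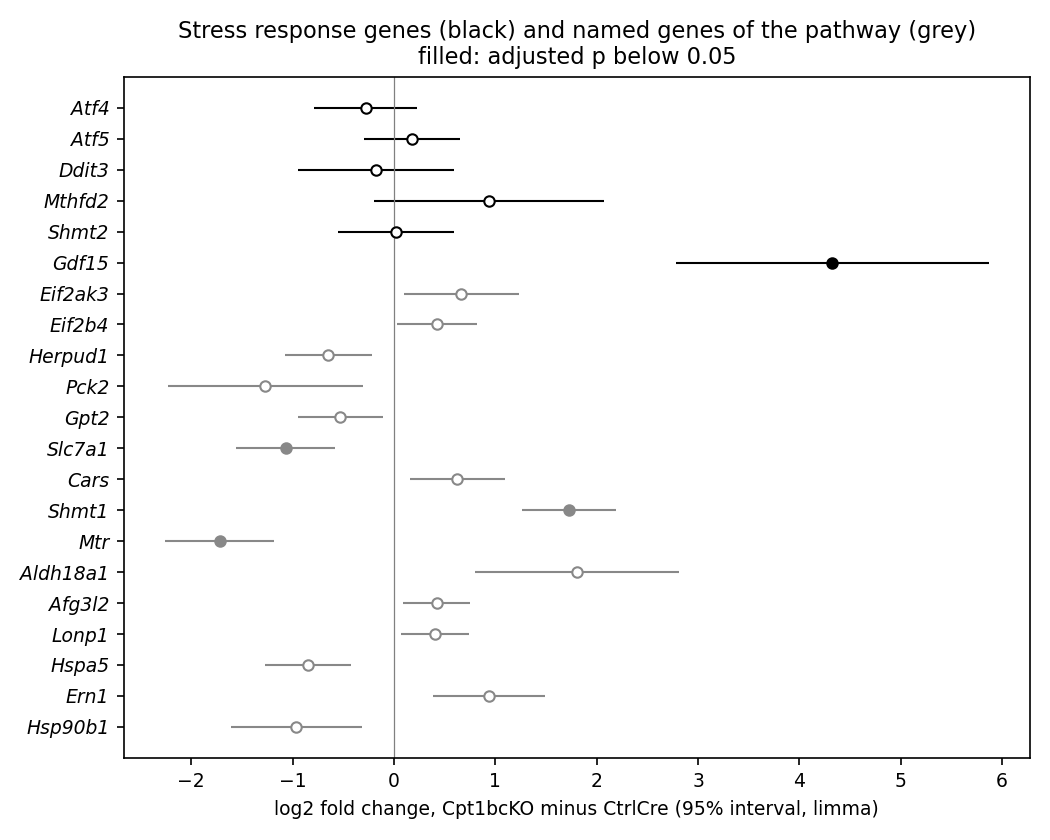
Log2 fold changes of Cpt1bcKO over CtrlCre with 95% intervals from limma for the 6 tested stress response genes (black) and 15 further genes of the pathway (grey), filled where the adjusted P value was below 0.05. Gdf15 is the only black filled point, at 4.32, and Slc7a1, Shmt1 and Mtr are the grey filled points.

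None of the genes listed for eIF2 kinases and eIF2 control was called. These are mRNA levels, and the activity of the kinases was not measured. The list held eIF2 kinases and their regulators, the mitochondrial relay from OMA1 to DELE1, eIF2 and its exchange factor, the eIF2 phosphatases and Qrich1. All 19 genes were tested and 0 had a limma adjusted P value under 0.05. Unadjusted P values under 0.05 were seen for 2 genes (13.9% of all genes tested), and the median log2 fold change was 0.0083, against −0.0013 over all genes tested. Eif2ak3, which encodes the ER stress kinase PERK, had 25, 35 and 29 normalized counts in CtrlCre and 42, 47 and 53 in Cpt1bcKO CMs, without overlap (log2 fold change 0.66 ± 0.256 SE, limma adjusted P = 0.277). Eif2b4, a subunit of the exchange factor, had 82, 94 and 87 in CtrlCre and 123, 110 and 122 in Cpt1bcKO CMs (log2 fold change 0.43 ± 0.178 SE, limma adjusted P = 0.312).

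None of the other regulators that respond to ATF4 was called. Of 16 partner factors and target genes 13 were tested, 0 had a limma adjusted P value under 0.05, and the 3 with an unadjusted P value below 0.05 all had lower means in Cpt1bcKO CMs (7.22% of all genes tested were called in this direction). The median log2 fold change was −0.093. Fgf21, the other hormone of the response, likewise named with its values known, was at 0 in all samples but Cpt1bcKO replicate 1, where it had 3 normalized counts. Chac1, a glutathione-degrading enzyme induced early in the response, had 27, 19 and 11 normalized counts in CtrlCre and 21, 17 and 13 in Cpt1bcKO CMs and is named after its values had been seen. Herpud1, an ER membrane protein, had 485, 364 and 292 in CtrlCre and 231, 231 and 250 in Cpt1bcKO CMs (log2 fold change −0.65 ± 0.192 SE, limma adjusted P = 0.159, and −0.46 without CtrlCre replicate 1). Pck2, the mitochondrial phosphoenolpyruvate carboxykinase, had 17, 19 and 17 in CtrlCre and 10, 5 and 6 in Cpt1bcKO CMs (log2 fold change −1.27, limma adjusted P = 0.213). Gpt2, the mitochondrial alanine transaminase, had a log2 fold change of −0.53 (limma adjusted P = 0.239), also without overlap of the groups.

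Among 10 amino acid transporter genes of the programme, 5 were tested. The cationic amino acid transporter gene Slc7a1 fell, with 501, 392 and 402 normalized counts in CtrlCre and 148, 267 and 214 in Cpt1bcKO CMs. Amino acid shortage is known to raise its mRNA. All Cpt1bcKO samples were below all CtrlCre samples. Its log2 fold change was −1.07 ± 0.218 SE (limma adjusted P = 0.0414). This call was close to the threshold. It was kept without Cpt1bcKO replicate 1 and lost in each of the other 5 fits that left out a sample, with adjusted P values up to 0.140 without CtrlCre replicate 1. The call was also lost with scaling to the total without mitochondrial and rRNA genes (adjusted P = 0.0568), quantile normalization (0.0576), replicates 2 and 3 alone (0.0561) and 1 prior variance for all genes (0.156). The log2 fold change was −0.96, −1.02, −0.73 and −1.07 in these fits, in that order, and −1.26 to −0.84 in those that left out a sample. The median log2 fold change of the 5 genes was −0.036.

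The 12 cytosolic aminoacyl-tRNA synthetase genes, which charge tRNAs with amino acids and are frequent ATF4 targets, were all tested. Of these, 10 had a higher and 2 a lower mean log2 value in Cpt1bcKO CMs, the median being 0.22, and 0 had a limma adjusted P value under 0.05. An unadjusted P value under 0.05, as in 6.66% of all genes tested in this direction, was found for 1 gene, Cars, the cysteinyl-tRNA synthetase gene, with 76, 55 and 76 normalized counts in CtrlCre and 93, 108 and 118 in Cpt1bcKO CMs (log2 fold change 0.63 ± 0.212 SE, limma adjusted P = 0.210). The 12 log2 fold changes ranged from −0.16 to 0.63.

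Shmt1 and Mtr, both of cytosolic one-carbon metabolism, were called in opposite directions. Of 19 further enzymes and carriers of serine, glycine, proline and one-carbon metabolism 15 were tested, with 1 higher and 1 lower at an adjusted P value below 0.05 in limma, against 1.57% of all genes tested in either direction. Shmt1 (ENSMUSG00000020534, chr11:60788104-60811265), the cytosolic counterpart of Shmt2, which overlaps Smcr8 on the opposite strand, rose, with 52, 45 and 57 normalized counts in CtrlCre and 138, 198 and 184 in Cpt1bcKO CMs. The log2 fold change was 1.73 ± 0.210 SE (limma adjusted P = 0.00382), and it remained called in all 6 fits that left out a sample, with log2 fold changes of 1.62 to 1.88. Mtr (ENSMUSG00000021311, chr13:12182712-12258095), which encodes the methionine synthase that passes the methyl group of folate to homocysteine, fell, with 1028, 1105 and 1062 normalized counts in CtrlCre and 205, 377 and 434 in Cpt1bcKO CMs. The log2 fold change was −1.72 ± 0.243 SE (limma adjusted P = 0.00874) and lay between −1.93 and −1.39 with each sample left out, still called each time. With 1 prior variance for all genes, the adjusted P value in limma was 0.0389 for Shmt1 and 0.0789 for Mtr.

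Other genes of this list had non-overlapping groups without passing the threshold. Aldh18a1, which starts proline synthesis and is an ATF4 target, had 11, 5 and 21 normalized counts in CtrlCre and 35, 46 and 39 in Cpt1bcKO CMs, without overlap (log2 fold change 1.81 ± 0.455 SE, limma adjusted P = 0.0928). A pair of mitochondrial folate genes, named after their values had been seen, were on the opposite side from Mthfd2. Aldh1l2 had 41, 34 and 37 in CtrlCre and 18, 15 and 17 in Cpt1bcKO CMs (log2 fold change −1.12, limma adjusted P = 0.0937), and Mthfd2l had 22, 24 and 22 and then 15, 11 and 3 (log2 fold change −1.37, limma adjusted P = 0.273). The log2 fold change of Mthfd2l depended on single samples and lay between −1.77 and −0.77 with each sample left out. The median log2 fold change of the 15 tested genes was −0.029.

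**Figure D3:**
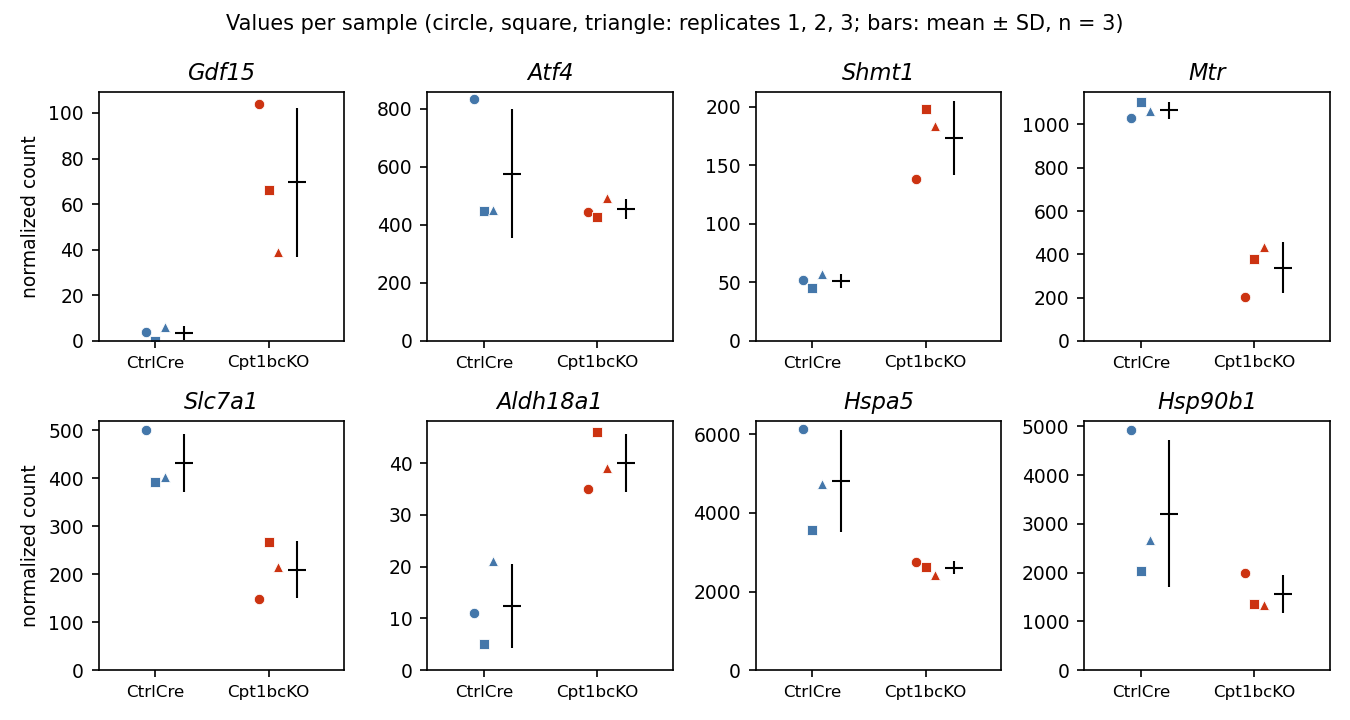
Normalized counts per sample on linear axes from 0 for Gdf15, Atf4, Shmt1, Mtr, Slc7a1, Aldh18a1, Hspa5 and Hsp90b1, with the mean and SD of 3 samples beside the points. The groups do not overlap for any of these genes except Atf4, in which CtrlCre replicate 1, at 833, stands above the other 5 samples.

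The mitochondrial chaperones and proteases, the effectors of the response to unfolded mitochondrial protein, held no called gene. All 12 were tested, 0 had a limma adjusted P value under 0.05, and 2 reached an unadjusted one, both with higher means in Cpt1bcKO CMs (6.66% of all genes tested in this direction). Lonp1, the matrix protease, had 580, 489 and 468 normalized counts in CtrlCre and 597, 720 and 723 in Cpt1bcKO CMs (log2 fold change 0.41 ± 0.152 SE, limma adjusted P = 0.255). Afg3l2, a subunit of the inner membrane protease, had 882, 760 and 667 in CtrlCre and 1018, 964 and 1092 in Cpt1bcKO CMs (log2 fold change 0.42 ± 0.147 SE, limma adjusted P = 0.228). Their median log2 fold change was 0.086, and 0.20 with scaling to the total without mitochondrial and rRNA genes, a scaling that moved the median of all genes to 0.11.

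The genes of the ATF6 and XBP1 arm, which refill the ER with chaperones and run in parallel to the integrated stress response, were on the low side in Cpt1bcKO CMs. All 17 were tested, and 15 had a negative log2 fold change, with a median of −0.59. Unadjusted P values under 0.05 were seen for 10 genes on the lower side, where 7.22% of all genes tested were called, and for 1 on the higher side, and 0 genes had a limma adjusted P value under 0.05. Hspa5, which encodes the main ER chaperone BiP and whose promoter with its ER stress element is printed above, had 6146, 3558 and 4748 normalized counts in CtrlCre and 2763, 2632 and 2426 in Cpt1bcKO CMs. All Cpt1bcKO samples were below all CtrlCre samples, at a log2 fold change of −0.85 ± 0.192 SE (limma adjusted P = 0.0612, and 0.0484 without a filter on low values). Hsp90b1, the ER form of HSP90, had 4920, 2036 and 2677 in CtrlCre and 2003, 1356 and 1332 in Cpt1bcKO CMs (log2 fold change −0.96 ± 0.290 SE, limma adjusted P = 0.162). Ern1, the sensor kinase IRE1, was on the other side, with 61, 85 and 76 in CtrlCre and 106, 136 and 195 in Cpt1bcKO CMs (log2 fold change 0.94 ± 0.248 SE, limma adjusted P = 0.111).

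CtrlCre replicate 1 contributed to the size of the ER difference, as 13 of the 17 genes had their highest value there. Without it the median log2 fold change of the list was −0.38, that of Hspa5 was −0.66 (limma adjusted P = 0.153) and that of Hsp90b1 was −0.60 (limma adjusted P = 0.336). Without CtrlCre replicate 2 the median was −0.86, and Hspa5 was called (log2 fold change −1.05, limma adjusted P = 0.0414). Without Cpt1bcKO replicate 1, Hspa5 (limma adjusted P = 0.0447) and Ern1 (0.0350) were called. In all, Hspa5 was called in 2 and Ern1 in 1 of the 6 fits that left out a sample. Among replicates 2 and 3 of both groups alone, the median was −0.47 and the limma adjusted P values of Hspa5 and Hsp90b1 were 0.0463 and 0.0273. Sex, read from Xist, was balanced between the groups, and with sex as a covariate Hspa5, Hsp90b1 and Ern1 were called, with limma adjusted P values of 0.00614, 0.00325 and 0.0180. The same fit raised the number of genes called in all from 178 to 574. The CM markers were on the low side in the same samples, with 10 of 10 log2 fold changes negative, a median of −0.37, 0 limma adjusted P values under 0.05, 2 unadjusted ones (7.22% of all genes tested in this direction) and 4 genes without overlap (9.60%). Immediate early genes were on the low side too, with 6 of 8 log2 fold changes negative and a median of −0.30. Of these 8 genes, 0 had a limma adjusted P value under 0.05 and 4 an unadjusted one, all lower (7.22% of all genes tested). Groups without overlap were found for 2 of them, both lower (9.60%). The part of the CM markers and of the immediate early genes in the ER difference was not tested.

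**Figure D4:**
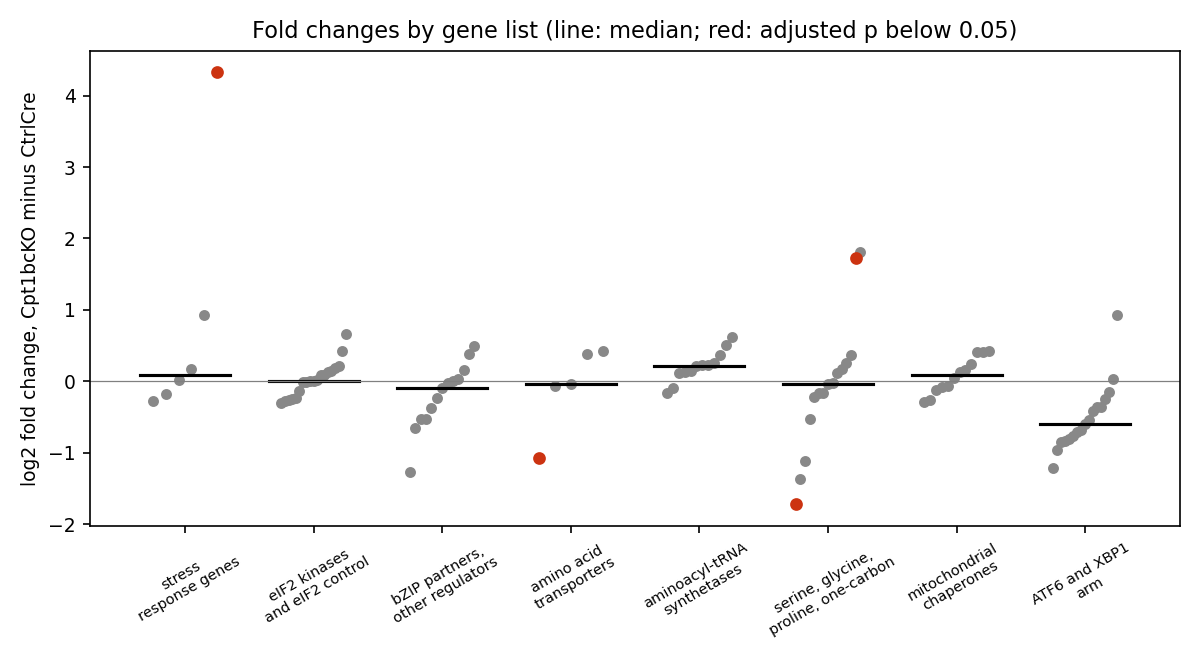
Log2 fold changes of every tested gene in the stress response set and in 7 lists of related genes, ordered within each list, with the median as a line and genes with an adjusted P value below 0.05 in red. The medians of all lists but the last lie between −0.093 and 0.22, and that of the ATF6 and XBP1 arm lies at −0.59.

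Markers of other heart cells were examined because the CMs had not been sorted, and in such bulk samples a change in the number of cells of a type cannot be told apart from a change in RNA per cell. Fibroblast markers moved with the groups. Their 8 genes summed to 498 to 785 normalized counts in CtrlCre and 1108 to 1338 in Cpt1bcKO samples, and all 7 tested genes were higher with an unadjusted P value below 0.05 (6.66% of all genes tested in this direction). Of these, Col1a1 and Lum had an adjusted one of 0.0143 each in limma (0.660% of all genes tested), and with each sample left out Col1a1 was called in 4 of 6 fits (adjusted P up to 0.0859) and Lum in 3 of 6 (up to 0.0720). None of the fibroblast markers was at 0 in any sample. Macrophage and leukocyte markers were low, with sums of 135 to 225 in CtrlCre and 169 to 190 in Cpt1bcKO samples, and 0 of 6 tested genes had an adjusted or unadjusted P value below 0.05 in limma. Endothelial markers summed to 1483 to 3086 and 2851 to 3317, with 8 of 8 log2 fold changes positive (median 0.34), 0 limma adjusted P values under 0.05 and 2 unadjusted ones, both higher (6.66% of all genes tested in this direction). This shared sign depended on replicate 1. In replicates 2 and 3 alone, Pecam1 (−0.072), Cdh5 (−0.088), Kdr (−0.037), Tek (−0.017) and Egfl7 (−0.024) were negative. Tie1 (0.37), Flt1 (0.36) and Emcn (0.12) stayed positive. These genes are named after their values had been seen. Smooth muscle and pericyte markers summed to 1108 to 2300 and 1174 to 1739, with a median log2 fold change of −0.12 over 6 tested genes, 0 limma adjusted P values under 0.05 and 1 unadjusted one, lower (7.22% of all genes tested in this direction). In replicates 2 and 3 alone, all 6 log2 fold changes were negative, from −1.21 to −0.45. CtrlCre replicate 1 had the lowest sum of all 6 samples for fibroblast (498), endothelial (1483) and smooth muscle and pericyte markers (1108). The part of fibroblast RNA in the differences of Gdf15, Shmt1 and the other genes was not tested. In replicates 1, 2 and 3, the fibroblast sum was 498, 785 and 772 in CtrlCre, where Gdf15 had 4, 0 and 6 normalized counts, and 1338, 1289 and 1108 in Cpt1bcKO, where Gdf15 had 104, 66 and 39.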

How the data were processed

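RNA-seq was carried out on total RNA of CMs, 3 CtrlCre and 3 Cpt1bcKO samples, grouped by their titles. According to the methods and the submitters' processing notes, the authors trimmed reads with Trimmomatic 0.36, aligned them to mm10 (GRCm38.p5) with STAR 2.5.4b, counted them per gene with featureCounts 1.6.0 without reads on several genes or regions, and normalized with DESeq2 1.14.1. The deposited values are a score, read counts that the authors divided by a size factor and rounded to whole numbers, so no count model was used. The authors' own fold changes and P values in the table were not used. Values were transformed to log2(value + 1), genes that reached 10 in 3 or more samples were kept, and limma 3.58.1 (R 4.3.3, lmFit and eBayes with trend) was fitted over 11364 genes. The limma fit was tested on simulated counts with the same dispersion for all genes. Summaries and figures were made in Python 3.11.15. Exon lengths are from GENCODE vM21 and promoters from RefSeq (GRCm38.p6). Read numbers were estimated from the values that low integers skip or pile up on.

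Members and gene lists were chosen with earlier results of these data known. Genes named in the text are all members, Cpt1b, and, from each list, those with an adjusted P value below 0.05 or, where fewer than 3 passed, up to 3 with the smallest unadjusted P value below 0.05, while genes outside this rule are marked. Alternatives were other scalings, pseudocounts, filters and prior variances, a replicate block, sex as covariate, replicates 2 and 3 alone and leaving out each sample.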

Additional observations from a re-analysis of the deposited data

How the results depend on the processing

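Of the 6 tested members, Gdf15 was called in 12 of the 15 alternatives in which it was fitted, always with a positive log2 fold change. These 15 include fits without a filter, chosen after seeing the data, for each Cpt1bcKO replicate left out and for replicates 2 and 3 alone. In the planned forms of those fits, and with a mean of at least 50, Gdf15 did not pass the filter and so had no call. Its call was lost with 1 prior variance for all genes (4.32), without Cpt1bcKO replicate 2 and no filter (4.31) and with replicates 2 and 3 alone and no filter (4.29, in a fit that called 0 of 16415 genes and so says nothing of this call). The other members were called in 0 of 75 fits. Their sign turned in 8 of these, for Atf4 without CtrlCre replicate 1 (0.017, range −0.43 to 0.017 with each sample left out) and with replicates 2 and 3 alone (0.031), for Ddit3 without Cpt1bcKO replicate 1 (0.21, range −0.57 to 0.21) and with replicates 2 and 3 alone (0.33), and for Shmt2 in fits that left out a sample (−0.12 to 0.30). The number of members called was 0 with a mean of at least 50, with 1 prior variance, with replicates 2 and 3 alone and, at its lowest, in fits that left out a sample (0 to 1), since Gdf15 then passed no filter or threshold.

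The number of genes called in all was 178, and 41 with 1 prior variance, 603 with the replicate block, 574 with sex as covariate, 86, 76 and 67 without CtrlCre replicates 1, 2 and 3, and 40 (without Cpt1bcKO replicate 2) to 305 (without Cpt1bcKO replicate 1) in fits that left out a sample. It split into 75 higher and 103 lower genes, and into 103 higher and 74 lower ones when values were scaled by a total that omits mitochondrial and rRNA genes. Same-numbered samples deviated from their group means with correlations of 0.376, 0.255 and 0.0684 across genes, and not every sample correlated best with its own number, so the numbers were not taken as pairs. With the replicate block, 1 member was called, and of the other genes named above or below, Aldh18a1, Ern1, Hspa5, Hsp90b1, Btg2, Fstl1 and Igf1 gained a call. In the ATF6 and XBP1 arm Xbp1 (limma adjusted P = 0.0432), Calr (0.0303) and Pdia3 (0.0338) were also called lower in this fit. Angptl4 (0.00805), of the secreted signals described below, was called higher. These genes were chosen after their values were seen. The CM markers Tnni3 (adjusted P = 0.00104) and Pln (0.00224), chosen after their values were seen, gained one too. The median of the partner factors was −0.30 with a mean of at least 50, and −0.42 to −0.011 in fits that left out a sample. That of the transporters was 0.17 without a filter, and −0.13 to 0.29 in fits that left out a sample. That of the further one-carbon genes was −0.17 with quantile normalization and −0.24 with replicates 2 and 3 alone, and −0.22 to 0.044 in fits that left out a sample. That of the mitochondrial chaperones reached 0.20 when values were scaled by a total that omits mitochondrial and rRNA genes, and −0.019 to 0.15 in fits that left out a sample, and that of the ATF6 and XBP1 arm was −0.86 to −0.38 in those fits. The cause of these shifts was not tested. With sex as covariate, adjusted P values also fell below 0.05 for Herpud1 (0.0450) and Aldh18a1 (0.0469). Trib3, Asns and Psat1 did not pass the filter on low values and were not tested.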

Other observations

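A pair of gene groups was added after the values had been seen, because Gdf15 is known both as a p53 target and as a secreted signal. Among 12 genes known as targets of p53, 11 were tested, 0 had a limma adjusted P value under 0.05, and 2 on each side reached an unadjusted one (13.9% of all genes tested in either direction). The median log2 fold change was −0.063. Phlda3, an inhibitor of AKT, had 21, 17 and 15 in CtrlCre and 33, 33 and 38 in Cpt1bcKO CMs, without overlap (log2 fold change 0.94, limma adjusted P = 0.173). Ccng1, a cyclin G gene, was on the other side with 8456, 7460 and 6438 in CtrlCre and 6540, 4335 and 5580 in Cpt1bcKO CMs (log2 fold change −0.45, limma adjusted P = 0.295). Btg2, an antiproliferative gene, had 1771, 874 and 974 in CtrlCre and 893, 739 and 690 in Cpt1bcKO CMs (log2 fold change −0.58, limma adjusted P = 0.324). The log2 fold change of Btg2 lay between −0.77 and −0.26 with each sample left out. Btg2 is also among the immediate early genes above. The next genes are named after their values had been seen. Plk2, also higher, had 393, 391 and 266 in CtrlCre and 479, 380 and 612 in Cpt1bcKO CMs (log2 fold change 0.48, limma adjusted P = 0.355). Cdkn1a had 40, 31 and 46 and then 103, 95 and 23 (0.65, limma adjusted P = 0.595). Its log2 fold change was 0.28 to 1.34 with each sample left out, called in 1 of 6 fits.

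Among 12 other secreted signals of the stressed heart, 7 were tested, and all 7 had a positive log2 fold change, with a median of 0.90. Unadjusted P values under 0.05 were seen for 5 of them, all higher in Cpt1bcKO CMs (6.66% of all genes tested in this direction). Nppa, the atrial natriuretic peptide gene, was the 1 gene called (0.660% of all genes tested in this direction), with 177, 93 and 144 normalized counts in CtrlCre and 683, 452 and 384 in Cpt1bcKO CMs (log2 fold change 1.87 ± 0.269 SE, limma adjusted P = 0.00917). It was called in 5 of 6 fits that left out a sample, with adjusted P values up to 0.0556. For Nppb and Angptl4, named after their values had been seen, the groups overlapped. Nppb had 1019, 625 and 901 in CtrlCre and 1638, 1671 and 833 in Cpt1bcKO CMs (log2 fold change 0.66, limma adjusted P = 0.308). Angptl4 had 60, 32 and 5 in CtrlCre and 128, 112 and 30 in Cpt1bcKO CMs (log2 fold change 1.74, limma adjusted P = 0.355). Igf1, a growth factor, had 37, 40 and 72 normalized counts in CtrlCre and 95, 85 and 106 in Cpt1bcKO CMs (log2 fold change 0.99, limma adjusted P = 0.128). Fstl1, a follistatin-like glycoprotein, had 76, 124 and 152 in CtrlCre and 230, 224 and 182 in Cpt1bcKO CMs (log2 fold change 0.90, limma adjusted P = 0.129). Fibroblasts also express both genes, and the fibroblast markers were higher in the same samples, but their part in these values was not tested.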
